A study of Gossypium hirsutum with 18 samples.

Results

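GhAOC4 denotes the upland cotton (Gossypium hirsutum) genes whose proteins are most like AtAOC4, an allene oxide cyclase of Arabidopsis. The 7 GhAOC4 genes listed by the study among its jasmonic acid synthesis genes were followed here, out of 54508 genes in the table of 18 root libraries. Their identifiers place 4 of them in a run on chromosome A08 (Gohir.A08G036200, Gohir.A08G036300, Gohir.A08G036400 and Gohir.A08G036500), 2 on D08 (Gohir.D08G046900 and Gohir.D08G047100) and 1 on D12 (Gohir.D12G173100), and are given below without the prefix. A and D name the subgenomes of this allotetraploid species. The study picked them for higher expression in the genotypes NemX and WMJJ compared with SJ2, in a section on basal expression, that of uninfested roots. The difference between uninfested genotypes and SJ2 is therefore given as a description, with no test.

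The study compared roots of 3 genotypes with and without the root-knot nematode (RKN) Meloidogyne incognita. SJ2_ctl and SJ2_rkn were uninfested and infested roots of Acala SJ-2, which is susceptible, WMJJ_ctl and WMJJ_rkn those of Wild Mexico Jack Jones, which is moderately resistant, and NemX_ctl and NemX_rkn those of Acala NemX, which is resistant. Seedlings of 12 days received 5000 second-stage juveniles per plant or only water, and roots of all groups were taken at 23 days. Each of the 6 groups had 3 libraries of separate biological replicates. No separation of galls or feeding sites from other root tissue is described, so an rkn library can mix them with uninfested stretches. The identifiers carry no names for root marker genes here, so the labelled tissue was not checked against markers, and the nematode load of each library was not measured here.

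Jasmonates are lipid hormones of plants that are made after wounding and attack by pests. In the chloroplast, a lipoxygenase adds oxygen to linolenic acid, allene oxide synthase turns the product into an unstable allene oxide, and allene oxide cyclase closes the ring to give OPDA in the form that plants can use. OPDA is then shortened to jasmonic acid in the peroxisome and joined to isoleucine, which gives the hormone that the COI1 receptor recognizes. In Arabidopsis the allene oxide cyclases form a small family, and AtAOC4 is the one known to be expressed mainly in roots.

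The deposited values are normalized by the authors and lie near CPM (counts scaled to a common library size), with library totals between 852215 and 1096550 and between 51290 and 53850 genes above 0. Whether they were divided by gene length is not stated, so that levels are compared within a gene and not between genes. Genes of a tandem run can share reads, and how the pseudo-alignment divided reads between near copies could not be examined, so the value of a single member is uncertain to that extent. In each group 1 library had the most pseudo-aligned reads in the methods of the study, namely replicate 1 of NemX_rkn and replicate 3 of the other groups, and these libraries stood apart in several members. A08G036200 was lowest of its group in this deepest library in 6 of 6 groups, A08G036400 was highest there in 5 of 6 and D08G046900 was lowest there in 5 of 6. The deviations of the deepest libraries from their group means, across all tested genes, correlated with r between 0.193 and 0.442 in all 15 pairs of groups. Genes are not independent replicates, and what set these libraries apart was not tested. Calls that changed without these 6 libraries are given with and without them.

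All 7 genes had their lowest mean in SJ2_ctl. The highest mean was in WMJJ_rkn for 5 of them and in NemX_ctl for A08G036400 and D08G046900. Summed over the 7 genes, the value was between 170.1 and 292 in SJ2_ctl and between 1085 and 1302 in SJ2_rkn. It was between 1370 and 1415 in WMJJ_ctl and between 2012 and 2570 in WMJJ_rkn, and between 2015 and 2434 in NemX_ctl and between 1459 and 1746 in NemX_rkn. The SJ2_ctl libraries thus lay below every other library, the infested libraries lay above the controls in SJ2 and WMJJ, and they lay below the controls in NemX. Fewer cells of a type and less RNA per cell cannot be told apart in RNA of mixed root cells.

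**Figure D1:**
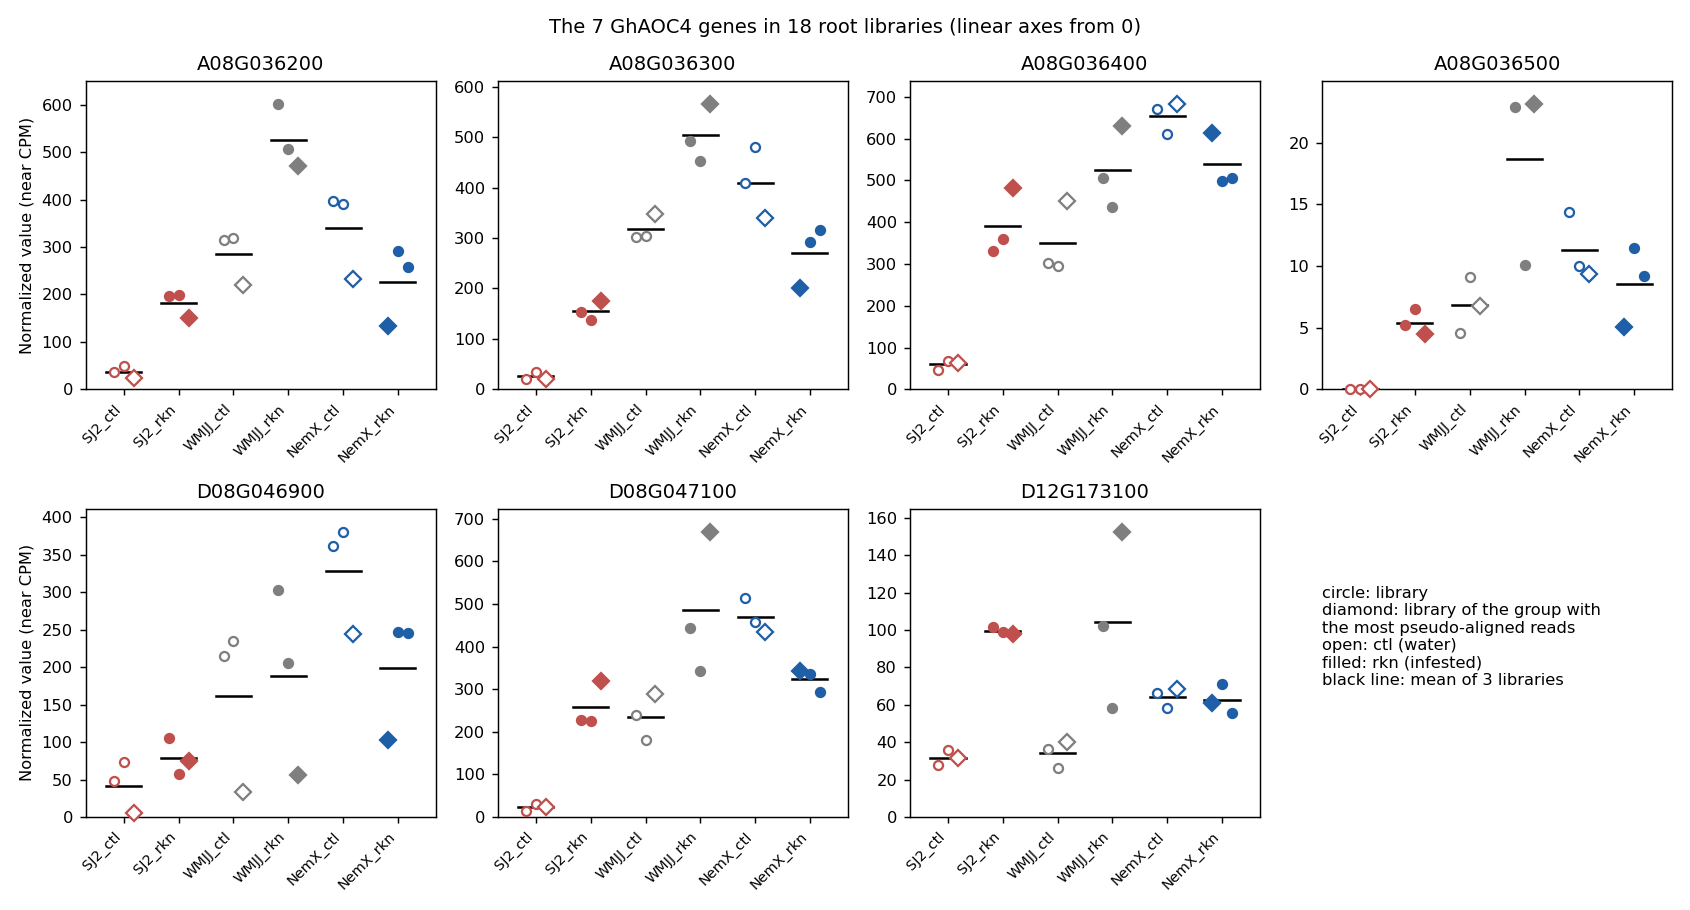
Normalized value (near CPM, linear axes from 0) of each GhAOC4 gene in the 18 libraries, by group, with circles for libraries, diamonds for the deepest library of a group and lines for the mean of 3 libraries. SJ2_ctl has the lowest mean in all 7 panels, and D12G173100 shows WMJJ_ctl (mean 34.1) beside SJ2_ctl (mean 31.6) where most other panels set them far apart.

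A test was made for each gene with limma on log2(value + 0.5), and all 7 genes were among the 46813 genes tested (mean of at least 1 over the libraries). Calls required a Benjamini-Hochberg adjusted p below 0.01 together with a log2 difference beyond 1 in either direction. In SJ2, 6 of 7 members were called higher in infested roots, where 8.09% of all tested genes were called higher. In WMJJ, 3 of 7 were called higher, against 5.60% of all genes. In NemX, 0 of 7 were called in either direction by limma, where 0.568% of genes were called higher and 0.666% lower. Control and infested libraries did not overlap in 6 of 7 members in SJ2 (20.6% of all genes, higher when infested), 5 of 7 in WMJJ (19.1%) and 2 of 7 in NemX (11.9%, lower when infested). The median log2 response over the 7 genes was 2.61 in SJ2, 0.90 in WMJJ and -0.53 in NemX, beside medians of -0.04, -0.00 and -0.02 over all tested genes. The responses use the same control libraries that entered the choice of the genes, so a low SJ2_ctl is built into the count for SJ2. High values in NemX_ctl and WMJJ_ctl entered the same choice, which can lower the responses of those genotypes. The same 6 members were called in SJ2 when any 1 SJ2 library was left out.

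A08G036200 is the first identifier of the A08 run. Its values in replicates 1, 2 and 3 were 36.1, 49.2 and 24.4 in SJ2_ctl and 196, 199 and 149.6 in SJ2_rkn. In WMJJ they were 315, 320.1 and 220.3 without and 602, 507 and 471 with nematodes. In NemX they were 398, 390.4 and 234 without and 133, 291 and 258 with nematodes. Infested and control libraries did not overlap in SJ2 and in WMJJ but overlapped in NemX, where the lowest of 6 libraries was the deepest rkn library. The gene rose in SJ2 by 2.34 on the log2 scale (SE 0.28, adjusted p = 1.71e-06). Its log2 response was 0.90 in WMJJ (SE 0.28, adjusted p = 0.0235) and -0.62 in NemX (SE 0.28, adjusted p = 0.248), both short of a call. In order of mean level the groups ran SJ2_ctl, SJ2_rkn, NemX_rkn, WMJJ_ctl, NemX_ctl and WMJJ_rkn, and only SJ2_ctl at the low end and WMJJ_rkn at the high end were free of overlap with the neighbouring group.

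A08G036300 follows it in the identifier order. The values in SJ2 were 20.6, 34.5 and 21.4 in the controls and 153, 138 and 175 in infested roots. In WMJJ they were 303, 304 and 348 in the controls and 493, 453 and 566 in infested roots. In NemX they were 409, 480.3 and 340.2 in the controls and 202, 291 and 316 in infested roots. Here treatments did not overlap in any of the 3 genotypes, with infested roots higher in SJ2 and WMJJ and lower in NemX. The SJ2 response passed the test with a log2 difference of 2.61 (SE 0.20, adjusted p = 4.2e-09). The WMJJ difference of 0.66 (SE 0.20, adjusted p = 0.0197) and the NemX difference of -0.62 (SE 0.20, adjusted p = 0.0824) did not. The mean of SJ2_rkn, 155 ± 18.6 (SD, n = 3), remained below every library of the other genotypes.

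A08G036400 had the values 46.7, 68.5 and 63.8 in SJ2_ctl and 331, 359.8 and 481 in SJ2_rkn. In WMJJ_ctl it stood at 303, 295 and 451 and in WMJJ_rkn at 505, 436 and 631. In NemX_ctl it stood at 671, 610.0 and 683 and in NemX_rkn at 614, 498 and 506. Only in SJ2 were the treatments apart, and the highest library of SJ2_rkn, WMJJ_ctl, WMJJ_rkn, NemX_ctl and NemX_rkn was in each case the deepest one. The gene rose in SJ2 by 2.70 on the log2 scale (SE 0.20, adjusted p = 2.88e-09). The log2 response was 0.60 in WMJJ (SE 0.20, adjusted p = 0.0345) and -0.28 in NemX (SE 0.20, adjusted p = 0.517). SJ2_ctl lay below all other groups, and each of the 5 groups above it overlapped with its neighbour in the order WMJJ_ctl, SJ2_rkn, WMJJ_rkn, NemX_rkn and NemX_ctl.

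A08G036500, the last of the run, had low values in the table and was listed at 0 in all 3 SJ2_ctl libraries. In SJ2_rkn it was at 5.21, 6.49 and 4.45. In WMJJ_ctl it was at 4.55, 9.11 and 6.77 and in WMJJ_rkn at 22.9, 10.1 and 23.1. In NemX_ctl it was at 14.4, 9.98 and 9.38 and in NemX_rkn at 5.03, 11.5 and 9.16. The gene thus had a value above 0 in 15 libraries and was listed at 0 in the 3 that remain. The read counts behind a listed 0 are not known, so no fold is given against SJ2_ctl. The test called the gene higher in SJ2_rkn than in SJ2_ctl (adjusted p = 5.92e-08). In WMJJ it rose by 1.35 on the log2 scale (SE 0.33, adjusted p = 0.00449), but the call was lost without replicate 1 of WMJJ_ctl (adjusted p = 0.0355), replicate 3 of WMJJ_ctl (0.0127), replicate 1 of WMJJ_rkn (0.034) or replicate 3 of WMJJ_rkn (0.0301). The NemX response was -0.42 (SE 0.33, adjusted p = 0.573).

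Summed over the 4 genes of the A08 run, the value was between 103 and 152 in SJ2_ctl and between 685 and 810.1 in SJ2_rkn. The sum was between 926 and 1027 in WMJJ_ctl and between 1406 and 1690.5 in WMJJ_rkn. It was between 1266 and 1493 in NemX_ctl and between 953 and 1092 in NemX_rkn. Unless the values were divided by gene length, the sum does not depend on how reads were divided within the run. Its groups were apart within each genotype, higher with nematodes in SJ2 and WMJJ and lower in NemX.

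D08G046900 had the widest spread between replicates of the 7 genes. Its values were 47.5, 72.9 and 5.30 in SJ2_ctl and 106, 57.3 and 74.5 in SJ2_rkn. In WMJJ it was at 214, 235 and 33.9 in the controls and at 303, 206 and 56.7 in infested roots. In NemX it was at 362, 381 and 245 in the controls and at 102, 247 and 246 in infested roots. Replicate 3 of SJ2_ctl, WMJJ_ctl, WMJJ_rkn and NemX_ctl and replicate 1 of NemX_rkn were the lowest of their groups, and all of them are the deepest libraries. No response of this gene passed the test. The log2 difference was 1.50 in SJ2 (SE 0.77, adjusted p = 0.159), 0.35 in WMJJ (SE 0.77, adjusted p = 0.805) and -0.81 in NemX (SE 0.77, adjusted p = 0.67). Without the deepest library of each group the SJ2 value was 0.40 (adjusted p = 0.267).

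The identifier D08G047000, which lies between both D08 members and is not in the list of the study, moved against D08G046900. It was listed at 0 or below 0.001 in 6 of 18 libraries and above 1 in the other 12. In SJ2 replicates 2 and 3 were at 8.84 and 34.5 in the controls and at 45.8 and 71.0 in infested roots. In WMJJ it was at 34.5, 31.9 and 279 in the controls and at 63.8, 59.0 and 359.9 in infested roots, and in NemX it was at 55.1 in control replicate 3 and 45.2 in infested replicate 1. In 6 of 6 groups its highest value was in the deepest library. The share of D08G046900 in the sum of both was lowest there in 6 of 6 groups, down to 13.3% in SJ2_ctl, 10.8% in WMJJ_ctl and 13.6% in WMJJ_rkn. Whether reads of one gene were assigned to the other was not tested.

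**Figure D2:**
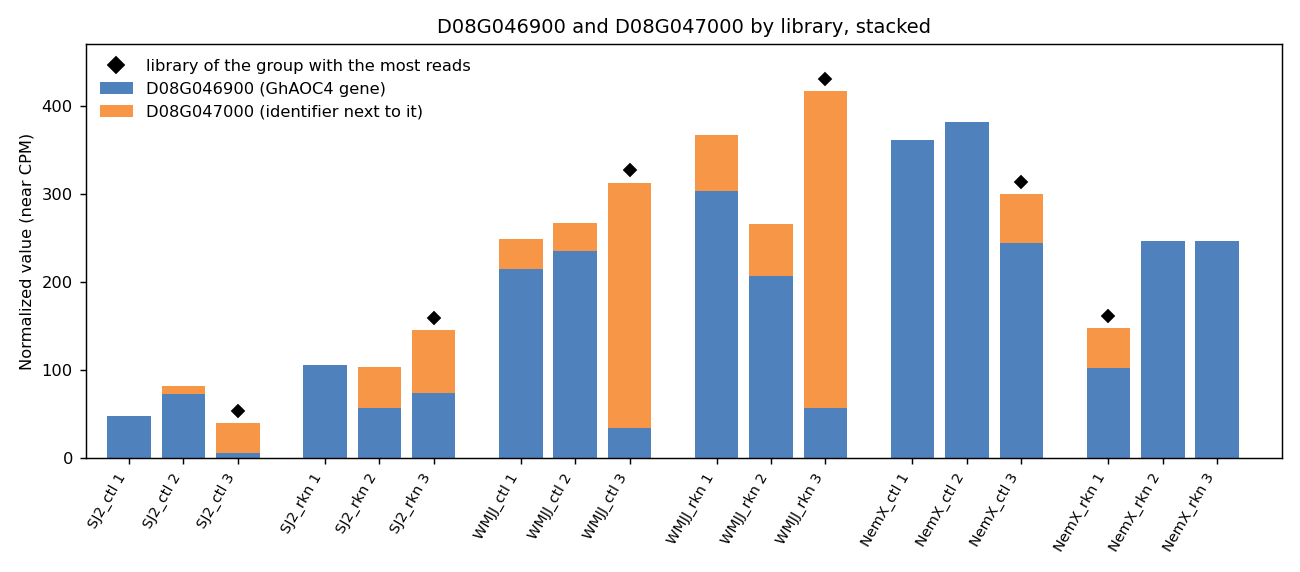
Normalized value (near CPM) of D08G046900 and of D08G047000, the identifier between the D08 members, stacked for each of the 18 libraries, with diamonds on the deepest library of a group. The second colour fills most of the bar in replicate 3 of SJ2_ctl, WMJJ_ctl and WMJJ_rkn, while the heights of the stacked bars differ less within groups than D08G046900 alone.

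The sum of the 2 identifiers, examined after the values had been seen, varied less between replicates than D08G046900 alone in 6 of 6 groups. The SD on the log2 scale fell from 1.96 to 0.536 in SJ2_ctl, from 1.56 to 0.169 in WMJJ_ctl and from 1.26 to 0.335 in WMJJ_rkn. The sum was 56.4 ± 22.3 in SJ2_ctl and 118 ± 23.8 in SJ2_rkn (SD, n = 3). It was 276 ± 32.9 in WMJJ_ctl and 349.6 ± 77.1 in WMJJ_rkn, and 347 ± 42.5 in NemX_ctl and 213 ± 57.0 in NemX_rkn. Taken as 1 feature it passed the test for SJ2, with a log2 response of 1.11 (SE 0.24, adjusted p = 0.00149).

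D08G047100 had the largest fitted response in SJ2 among the 6 members with values above 0 in all groups. It was at 14.5, 30.9 and 23.7 in SJ2_ctl and at 227, 226 and 319 in SJ2_rkn. In WMJJ it was at 238, 181 and 288 in the controls and at 444, 342 and 670.1 in infested roots. In NemX it was at 514, 459 and 435 in the controls and at 343, 336 and 294 in infested roots. The treatments were apart in all 3 genotypes, higher with nematodes in SJ2 and WMJJ and lower in NemX. The gene rose in SJ2 by 3.50 on the log2 scale (SE 0.25, adjusted p = 1.87e-09). In WMJJ it rose by 1.01 (SE 0.25, adjusted p = 0.00509), just past the threshold of 1. That call was lost without replicate 1 (adjusted p = 0.0165) or 2 (0.037) of WMJJ_ctl and without replicate 1 (0.0152) or 3 (0.0392) of WMJJ_rkn. The log2 difference also fell below the threshold with equal library totals (0.993), median-of-ratios scaling (0.996) and quantile normalization (0.953). In NemX the log2 difference was -0.53 (SE 0.25, adjusted p = 0.273).

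D12G173100, the member on D12, had a different profile. It was at 27.7, 35.7 and 31.5 in SJ2_ctl and at 102, 98.8 and 98.0 in SJ2_rkn. In WMJJ it was at 36.1, 26.1 and 40.0 in the controls and at 102, 58.4 and 153 in infested roots. In NemX it was at 66.1, 58.3 and 68.7 in the controls and at 61.0, 71.4 and 55.3 in infested roots. Uninfested SJ2 and WMJJ overlapped, both NemX groups overlapped with each other between those controls and SJ2_rkn, and infested SJ2 and WMJJ overlapped at the top, although replicate 2 of WMJJ_rkn reached down into the NemX libraries. The gene rose in SJ2 by 1.65 (SE 0.23, adjusted p = 1.59e-05) and in WMJJ by 1.52 (SE 0.23, adjusted p = 6.16e-05) on the log2 scale. The NemX difference was -0.04 (SE 0.23, adjusted p = 0.958), with a 95% interval from -0.53 to 0.44.

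**Figure D3:**
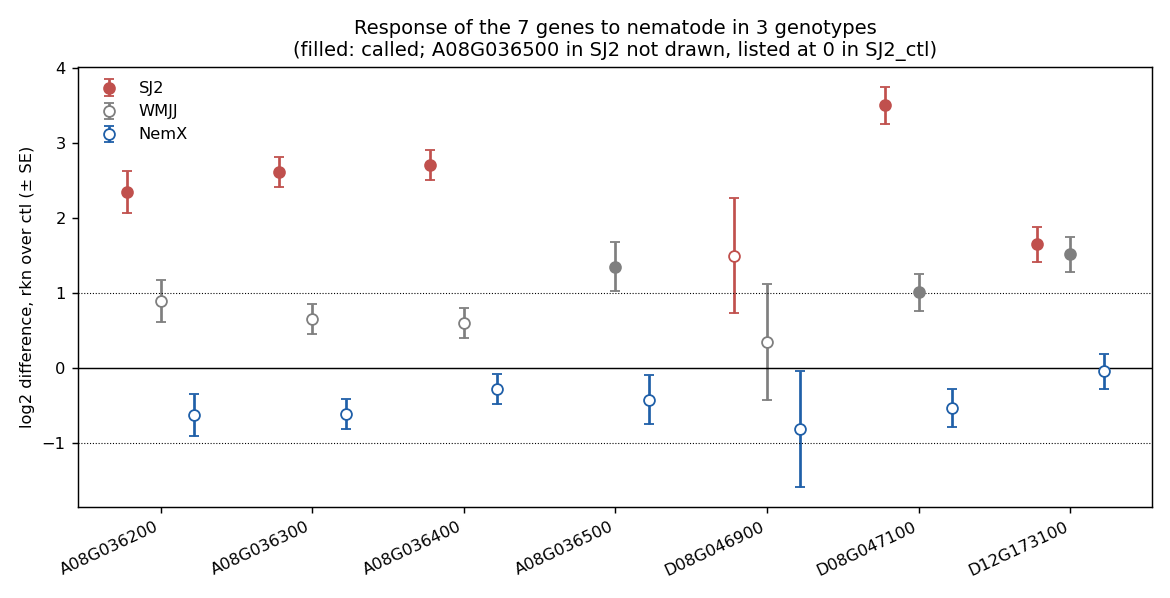
Fitted log2 difference of infested over control roots (points) with its standard error (bars) for the 7 genes in SJ2, WMJJ and NemX, filled where called, with dotted lines at the threshold of 1 in each direction and no point for A08G036500 in SJ2, where the controls are listed at 0. SJ2 lies above WMJJ and WMJJ above NemX for each gene drawn, and the points of SJ2 (1.65) and WMJJ (1.52) are close only in D12G173100.

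The WMJJ calls depended on more than single libraries. A fit on the compared libraries alone called 0 of 7 members in WMJJ, and without the deepest library of each group only D12G173100 was called (log2 difference 1.32, adjusted p = 5.23e-04). Under the latter, A08G036500 had a log2 difference of 1.18 (adjusted p = 0.0382) and D08G047100 one of 0.90 (adjusted p = 0.0158). D12G173100 was the only member whose WMJJ call held when any 1 WMJJ library was left out, with adjusted p between 6.98e-07 and 0.000762.

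The responses of the genotypes were compared as interaction terms in the same fit. The SJ2 response was called higher than the NemX response in 6 of 7 members, where 5.22% of all genes were called that way. Of these, D08G047100 differed by 4.03 (SE 0.35, adjusted p = 1.63e-07) and A08G036300 by 3.23 (SE 0.28, adjusted p = 1.58e-07) on the log2 scale. A08G036400 differed by 2.99, A08G036200 by 2.96 and D12G173100 by 1.69, with adjusted p of 4.2e-07, 2.38e-05 and 0.00131, and A08G036500 had an adjusted p of 5.2e-06. For D08G046900 the difference was 2.31 (SE 1.09, adjusted p = 0.193), and it was 1.85 (adjusted p = 8.55e-04) for its sum with D08G047000. Without the deepest libraries D08G046900 alone had 0.99 (adjusted p = 0.0887). Each of these terms contains the difference between NemX_ctl and SJ2_ctl, for which the genes were chosen.

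Between SJ2 and WMJJ the response was called larger in SJ2 for 4 of 7 members, against 3.95% of all genes. The fitted difference was above 0 in 7 of 7. Each of these terms contains the difference between WMJJ_ctl and SJ2_ctl, which entered the choice of the genes. D08G047100 differed by 2.49 (SE 0.35, adjusted p = 6.96e-05), A08G036400 by 2.11 (SE 0.28, adjusted p = 3.91e-05) and A08G036300 by 1.95 (SE 0.28, adjusted p = 8.07e-05). The adjusted p of A08G036500 was 0.00333, and it rose to 0.0103 without replicate 2 of SJ2_rkn and to 0.0139 without replicate 2 of WMJJ_ctl. A08G036200 did not pass with all libraries (1.44, adjusted p = 0.0221) but passed without replicate 2 of SJ2_ctl (1.68, adjusted p = 0.00888). It passed as well without the deepest libraries (1.42, adjusted p = 0.000774), with a term for the deepest library (adjusted p = 6.67e-05), with the replicate block (0.00637) and with a fit on the compared libraries alone (0.00939), which each gave 5 members called. D12G173100 differed by 0.13 between the genotypes, with a 95% interval from -0.56 to 0.82.

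The comparison of WMJJ with NemX does not involve SJ2, but its controls, WMJJ_ctl and NemX_ctl, entered the choice of the genes. The response was called higher in WMJJ for 1 of 7 members, against 1.05% of all genes. This was D12G173100, with a log2 difference of 1.56 (SE 0.33, adjusted p = 0.00914), and the call was lost when any 1 of 10 of the 12 libraries was left out (adjusted p from 0.013 to 0.0299), all but replicate 3 of WMJJ_ctl and replicate 2 of WMJJ_rkn. It was also lost with equal library totals, where 0 members were called, and without replicate 2 of WMJJ_rkn 3 members were called. Without the deepest libraries D12G173100 was not called (1.30, adjusted p = 0.0445), and A08G036200, at 1.52 with all libraries, was the 1 member called (1.32, adjusted p = 0.00603). The fitted difference was above 0 for all 7 members and between 0.88 and 1.77, beside a median of 0.02 over all tested genes. With a term for the deepest library, 4 members were called.

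In infested roots the question is how far the genotypes still differed. The libraries of this comparison are not those of the uninfested roots, although the study may have looked at them when it chose the genes. WMJJ_rkn was called above SJ2_rkn in 3 of 7 members, where 2.60% of genes were called higher. These were A08G036300 (log2 difference 1.70, SE 0.20, adjusted p = 3.79e-06), A08G036500 (1.63, SE 0.33, adjusted p = 0.00166) and A08G036200 (1.54, SE 0.28, adjusted p = 0.000624). The call of A08G036500 was lost without replicate 1 (adjusted p = 0.0163) or 3 (0.0146) of WMJJ_rkn and without the deepest libraries (0.034). D08G047100 had a difference of 0.88 (adjusted p = 0.0231) and was called without replicate 2 of WMJJ_rkn (1.10, adjusted p = 0.00723). A08G036400, at 0.43, and D12G173100, at -0.04, did not pass, with adjusted p of 0.191 and 0.949. The sum of D08G046900 and D08G047000 was higher in WMJJ_rkn by 1.55 (adjusted p = 1.34e-04), whereas D08G046900 alone had 0.99 (adjusted p = 0.485) with all libraries and was called without the deepest ones (1.68, adjusted p = 2.2e-04).

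NemX_rkn and SJ2_rkn differed in 0 of 7 members by the limma test, where 2.88% of genes were called higher and 1.81% lower. The libraries of both groups were apart for 3 of 7 members, as they were for 16.0% of all genes with higher and 13.7% with lower values in NemX_rkn. Values were higher in NemX_rkn for A08G036300 (log2 difference 0.78, 95% interval 0.36 to 1.19, adjusted p = 0.0118) and A08G036400 (0.48, 0.06 to 0.89, adjusted p = 0.128). They were lower there for D12G173100 (-0.67, -1.16 to -0.19, adjusted p = 0.0639). The intervals are not adjusted for the number of genes tested. Without the deepest libraries 2 members were called higher in NemX_rkn, A08G036300 (1.06, adjusted p = 0.00116) and D08G046900 (1.66, adjusted p = 2.65e-04, where it had 1.26 with all libraries).

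NemX_rkn was called below WMJJ_rkn in 1 of 7 members, against 3.45% of genes called lower. This was A08G036200, with a log2 difference of -1.28 (SE 0.28, adjusted p = 0.00228), and the call was lost without replicate 1 of NemX_rkn (adjusted p = 0.0216) or of WMJJ_rkn (0.0161). A08G036300, at -0.92 (adjusted p = 0.00211), fell short only of the fold threshold, and A08G036500, at -1.07 (adjusted p = 0.0255), only of the threshold on p. A08G036300 was called without replicate 3 of NemX_rkn (-1.05, adjusted p = 0.00264), and A08G036500 without replicate 2 of WMJJ_rkn (-1.45, adjusted p = 0.003). The fitted difference of A08G036400 was 0.05, with a 95% interval from -0.36 to 0.47.

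In uninfested roots, the fitted log2 difference of NemX_ctl over SJ2_ctl was above 1 in 7 of 7 members, as for 10.8% of all genes, and the libraries of both groups were apart in 7 of 7, as for 19.5% of all genes in that direction. It was 4.38 for D08G047100, 4.01 for A08G036300, 3.57 for D08G046900, 3.46 for A08G036400, 3.22 for A08G036200 and 1.02 for D12G173100. The value of D08G046900 rests in part on replicate 3 of SJ2_ctl and was 2.45 without that library and 2.65 without the deepest library of each group. The value of D12G173100 was 0.97 without the deepest libraries, and fell to 0.72 when the libraries were scaled to equal totals, which lowered the median of all genes by 0.281 in this comparison and by 0.167 in the SJ2 response. For WMJJ_ctl over SJ2_ctl the difference was above 1 in 6 of 7 members, as for 9.55% of genes, and between 2.14 and 3.65 in the 5 of these with values above 0 in SJ2_ctl. The lowest of these was D08G046900, which had 1.02 without replicate 3 of SJ2_ctl, 3.04 without replicate 3 of WMJJ_ctl and 1.92 without both and the other deepest libraries. In D12G173100 the difference was 0.09. The study describes its choice as genes with higher expression in NemX and WMJJ, in a section on basal expression. D12G173100 did not show this in WMJJ_ctl here, and how the choice was applied to it is not known.

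NemX_ctl and WMJJ_ctl were both on the high side in that choice, and their difference was tested. It was above 0 in 7 of 7 members and called in 1, D08G047100 (1.01, SE 0.25, adjusted p = 0.00793), where 3.74% of genes were called higher. The libraries were apart in 5 of 7 members, as for 17.7% of genes. A08G036400 (0.93, adjusted p = 0.00266) and D12G173100 (0.93, adjusted p = 0.00961) fell short only of the fold threshold, whereas A08G036200 (0.24, adjusted p = 0.641) and A08G036300 (0.35, adjusted p = 0.264) had overlapping libraries. The call of D08G047100 was lost without any 1 of 5 of the 6 libraries (adjusted p from 0.0162 to 0.0511), all but replicate 3 of WMJJ_ctl, without which A08G036400 was called too (1.13, adjusted p = 0.000856), and with equal library totals. Without the deepest libraries 3 members were called, A08G036400 (1.10, adjusted p = 3.62e-04), D08G047100 (1.22, adjusted p = 0.00345) and D12G173100 (1.00, adjusted p = 0.00776).

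Ratios of 2 members within a library do not depend on how the library was scaled, and were described without a test. The log2 ratio of A08G036300 to A08G036400 was between -1.57 and -0.99 in SJ2_ctl and between -1.46 and -1.12 in SJ2_rkn. In WMJJ it was between -0.37 and 0.05 in the controls and between -0.16 and 0.05 in infested roots. In NemX it was between -1.01 and -0.34 in the controls and between -1.60 and -0.68 in infested roots. The 6 WMJJ libraries were therefore above the 6 SJ2 libraries under both treatments, and NemX lay between or beside them. This ratio was also lowest of its group in the deepest library in 6 of 6 groups. Sequence differences between the genotypes and the reference transcripts were not examined.

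The log2 ratio of D12G173100 to A08G036400 fell from between -1.02 and -0.75 in SJ2_ctl to between -2.30 and -1.70 in SJ2_rkn. In WMJJ it went the other way, from between -3.50 and -3.07 to between -2.90 and -2.05. In NemX it was between -3.39 and -3.31 in the controls and between -3.33 and -2.80 in infested roots. Treatments were apart in SJ2 and WMJJ and overlapped in NemX, so that SJ2 and WMJJ moved in opposite directions in this ratio while both members had higher means after infestation. The ratio of D08G047100 to A08G036400 was between -1.68 and -1.15 in SJ2_ctl and between -0.84 and 0.09 in the 15 other libraries.

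**Figure D4:**
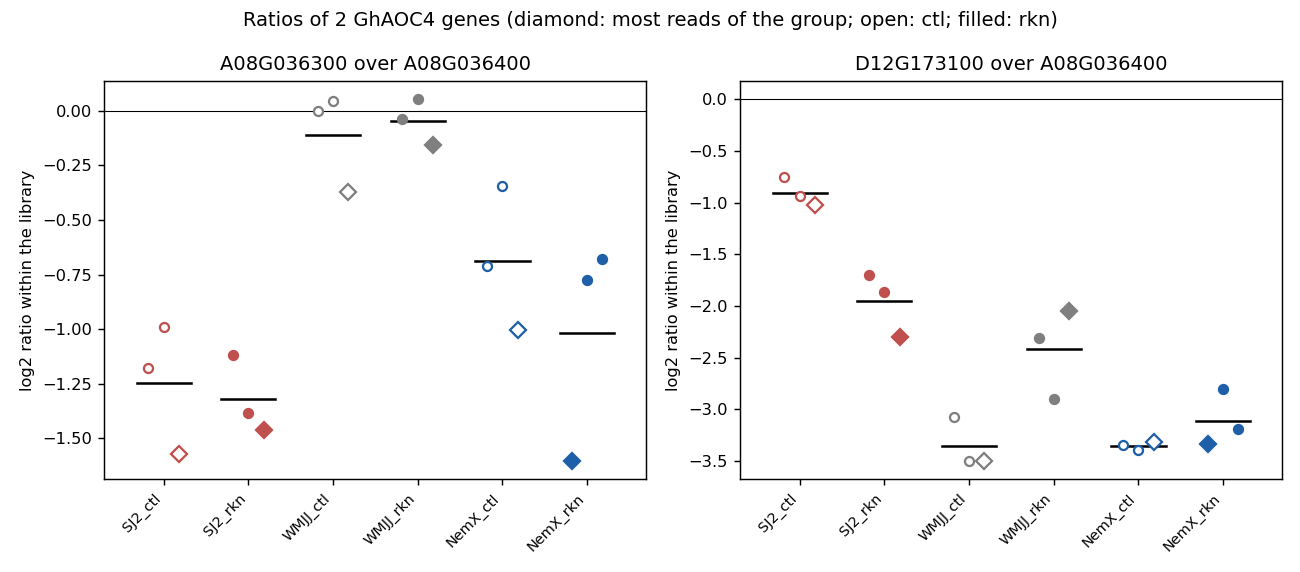
Log2 ratio within each library of A08G036300 to A08G036400 (left) and of D12G173100 to A08G036400 (right) in the 6 groups, with open symbols for controls, filled symbols for infested roots, diamonds for the deepest library of a group and lines for means of 3 libraries. On the left all WMJJ libraries lie above all SJ2 libraries, and on the right SJ2 falls and WMJJ rises with nematodes.

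Across the 18 libraries, A08G036200, A08G036300, A08G036400 and D08G047100 had similar profiles, with Pearson's r of log2 values between 0.856 and 0.989. The highest was 0.989, between A08G036400 and D08G047100. A08G036500, whose SJ2_ctl libraries are listed at 0, had r between 0.934 and 0.964 with A08G036200, A08G036300, A08G036400 and D08G047100. D12G173100 correlated with the other members with r between 0.208 (D08G046900) and 0.672 (D08G047100). These values describe 18 libraries that share 6 group means. After the group means were removed, r was 0.871 between A08G036400 and D08G047100 and -0.476 between A08G036200 and A08G036400.

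No annotation of these identifiers was at hand, so that the genes around the members, in the order of the identifiers, served as the comparison in place of other pathway genes. Within 10 identifiers of each run there were 61 other genes, of which 56 were tested. In SJ2 7 of these were called higher and 2 lower, in WMJJ 2 higher and 0 lower, and in NemX 0 in either direction, with median log2 responses of 0.17, 0.12 and -0.05. Over all tested genes, 8.09% were called higher in SJ2 and 5.60% in WMJJ. The 7 neighbours called higher in SJ2 were D08G047200 (log2 difference 2.73), D08G047800 (2.22), D12G172200 (1.86), D12G173400 (1.56), A08G037500 (1.54), D08G045966 (1.50) and A08G037950 (1.41). D08G047200, D08G047800 and D12G172200 lay above D12G173100 (1.65), and D08G046900 (1.50) lay within the range of these 7. In SJ2 the members stood above most, but not all, of their neighbours. The members were chosen for higher expression in NemX and WMJJ than in SJ2, while the neighbours were taken by identifier order. A low SJ2_ctl in the members is therefore built into this ranking.

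D08G047200, the identifier after D08G047100, is not in the list of the study, and its function is not known here. It was at 8.79, 8.12 and 6.85 in SJ2_ctl and at 54.9, 62.7 and 48.4 in SJ2_rkn. In WMJJ it was at 100.4, 97.1 and 88.2 in the controls and at 145, 144 and 135 in infested roots, and in NemX at 153, 118 and 107 in the controls and at 61.7, 80.0 and 76.3 in infested roots. Treatments were apart in all 3 genotypes, in the directions of A08G036300 and D08G047100. It rose in SJ2 by 2.73 (SE 0.15, adjusted p = 8.03e-11), and its log2 difference was 0.57 in WMJJ (SE 0.15, adjusted p = 0.0089) and -0.79 in NemX (SE 0.15, adjusted p = 0.00432), both below the fold threshold. Over the 18 libraries its log2 values correlated with A08G036300 with r = 0.983 and with A08G036200 with r = 0.973. Like A08G036200 it was lowest of its group in the deepest library in 6 of 6 groups.

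The other identifiers next to the runs did not share this profile. A08G036000, before the A08 run, fell in SJ2 by 1.82 on the log2 scale (adjusted p = 0.00172) at a mean value of 1.71. A08G036700, after that run, had a response of 0.40 in SJ2 (adjusted p = 0.349) and rose in WMJJ by 1.17 (adjusted p = 0.00622). D08G046700, before the D08 members, had -1.41 in SJ2 (adjusted p = 0.0304) at a mean value of 1.10. On D12, D12G173000 was at -0.00 in SJ2 (adjusted p = 0.991) and rose in WMJJ by 1.13 (adjusted p = 4.65e-05), and D12G173200 had -0.38 in SJ2 (adjusted p = 0.236).

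**Figure D5:**
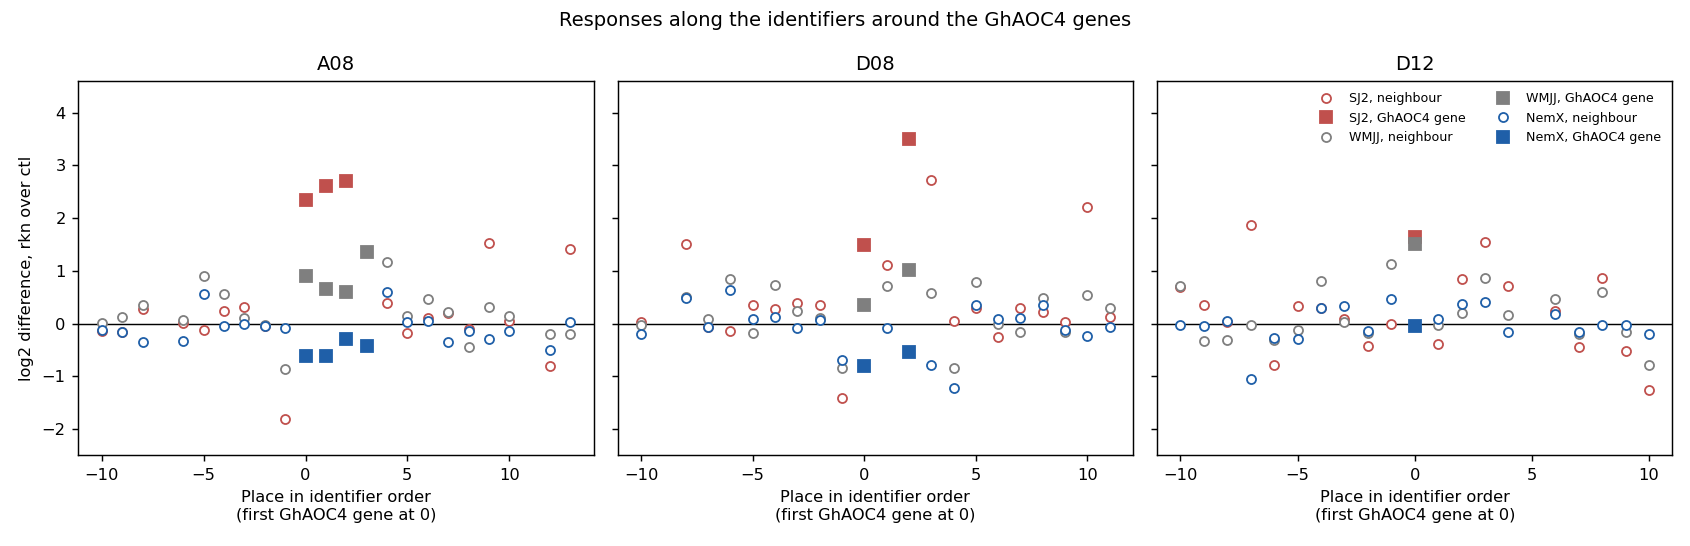
Fitted log2 difference of infested over control roots against the place in the order of identifiers, counted from the first GhAOC4 gene of each chromosome, for GhAOC4 genes (filled squares) and tested neighbours (open circles) in 3 genotypes, without A08G036500 in SJ2. In SJ2 the squares of the A08 run lie between 2.34 and 2.70, and the open circle beside D08G047100 is D08G047200 at 2.73.

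The 2 genes most like each member over the 18 libraries were chosen by Pearson's r of log2 values, and their functions are not known here. For A08G036200 they were A08G134500 (r = 0.980) and D08G032700 (0.979), and for A08G036300 D08G033100 (0.986) and D08G212000 (0.986). For A08G036400 they were A01G021000 (0.984) and D05G304500 (0.979), and for A08G036500 D01G037200 (0.976) and D11G265600 (0.976). For D08G047100 they were D10G057400 (0.985) and D05G379900 (0.982). D08G046900 had D03G108500 (0.943) and D12G191033 (0.927), and D12G173100 had D06G029000 (0.951) and A09G052600 (0.946), so that the 2 members with the profiles least like the rest also had the lowest values of r. By Spearman's rho the first gene was the same only for A08G036200 and D08G046900.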

How the data were processed

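Total RNA of roots was sequenced as paired-end reads from 18 libraries, 3 in each of 6 groups, and grouped by the labels. Part of the libraries were prepared with another, stranded kit, and the methods of the study describe runs on MiSeq and on HiSeq sequencers. Which libraries these were is not given in the sources used here. Whether the deepest library of each group differed from the others in kit or sequencer is therefore not known. The study's text gives another number of plants per group than the labels do. The authors used FastQC 0.11.9 for read quality, Trimmomatic 0.39 for adapters and kallisto 0.46.1 for pseudo-alignment to the TM-1 UTx v2.1 reference, and passed gene values through tximport to edgeR and DESeq2. They deposited normalized signal values for 54508 genes, near CPM and with a factor per library. How this table was normalized and filtered is not given in the sources used here. The values are not whole reads, so the depth behind a value is unknown, no counting interval could be given and no count model was run.

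Values were analysed in R 4.3.3 with limma 3.58.1. log2(value + 0.5) was fitted with one coefficient per group (eBayes with a trend of the variance with intensity) for 46813 genes with a mean of at least 1, which left out 7695. P-values were adjusted within each of 10 comparisons, 3 of them interactions, over all tested genes. The fit was tested on simulated data. Standard errors and 95% intervals come from this fit. The plan had named a test on counts in case the table held them.

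The 7 members and all lists and rules were chosen with earlier results of these data known. Named besides the members are identifiers between or next to them and the 2 genes with the highest r to each. A RefSeq table of the same assembly matched 0 of the identifiers, so no sequence, coordinate or annotation is given and the other pathway genes were not analysed here. The alternatives were other added constants, filters, scalings, thresholds and fits, a term for the replicate number or the deepest library and each library of the compared groups left out. Summing D08G046900 with D08G047000, leaving out the deepest libraries and, for uninfested roots against SJ2, leaving out single libraries were added after the data were seen. Hormone and gall measurements were not analysed here.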

Additional observations from a re-analysis of the deposited data

Results flagged for a closer look

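The results listed here are differences between genotypes in the response to nematodes that passed the limma test of the interaction itself (adjusted p below 0.01, log2 difference beyond 1). They are given as values, without an explanation.

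Between SJ2 and NemX the log2 responses differed by 2.96 in A08G036200, 3.23 in A08G036300, 2.99 in A08G036400, 4.03 in D08G047100 and 1.69 in D12G173100, all higher in SJ2. A08G036500 had an adjusted p of 5.2e-06 in the same direction, with no fold given because its SJ2_ctl libraries are listed at 0. Between SJ2 and WMJJ the differences were 1.95 in A08G036300, 2.11 in A08G036400 and 2.49 in D08G047100, and A08G036500 had an adjusted p of 0.00333. Between WMJJ and NemX the difference was 1.56 in D12G173100, a call that was lost without the deepest libraries (1.30, adjusted p = 0.0445). The terms with SJ2 contain the uninfested difference from SJ2 for which the genes were chosen. The term between WMJJ and NemX contains WMJJ_ctl and NemX_ctl, which entered that choice as well. For D12G173100 the uninfested log2 difference from SJ2 was 1.02 in NemX and 0.09 in WMJJ.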

How the results depend on the processing

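Single libraries were left out only from the groups that a comparison uses. The count of 6 members called in the SJ2 response and in its difference from the NemX response stayed at 6 whichever of these was left out. The count for the WMJJ response was 1 without the deepest libraries, 0 with the fit on the compared libraries alone, 2 with no intensity trend, quantile normalization, equal library totals or scaling by the median of ratios, and from 1 to 3 with each library left out. For NemX_rkn over SJ2_rkn it was 2 without the deepest libraries. For NemX_rkn over WMJJ_rkn it was 2 with an adjusted p below 0.05, 2 with no fold threshold, and from 0 to 2 with each library left out. For NemX_ctl over WMJJ_ctl it was 0 with 0.1 added, equal library totals, quantile normalization or no intensity trend, 3 without the deepest libraries or with no fold threshold, and from 0 to 2 with each library left out. For the WMJJ response minus the NemX response it was 0 with 0.1 added, equal library totals, quantile normalization or no intensity trend, 4 with a term for the deepest library, 5 with an adjusted p below 0.05, and from 0 to 3 with each library left out. Without the deepest libraries that count stayed at 1, but for A08G036200 in place of D12G173100. The SJ2 response minus the WMJJ response had 5 in place of 4 without the deepest libraries, with a term for the deepest library or with the fit on the compared libraries alone, and 3 with 1 added. The cause of these shifts was not tested, apart from the thresholds, where more genes pass by construction.

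Values that changed sign were all small or belonged to D08G046900. D12G173100 in the NemX response was 0.013 with equal library totals, 0.014 with quantile normalization and 0.018 without the deepest libraries, and ran from -0.14 to 0.040 with each library left out. In the SJ2 response minus the WMJJ response it was -0.029 with equal library totals and ran from -0.24 to 0.45. In WMJJ_rkn over SJ2_rkn it ran from -0.36 to 0.33. A08G036400 in NemX_rkn over WMJJ_rkn was -0.019 with equal library totals and -0.043 with quantile normalization, and ran from -0.073 to 0.19. D08G046900 in NemX_rkn over WMJJ_rkn was -0.73 when summed with D08G047000 and -0.022 without the deepest libraries, and ran from -0.44 to 0.76. In the WMJJ response D08G046900 ran from -0.56 to 1.06.

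Equal library totals moved the median of all genes by -0.167 in the SJ2 response, -0.22 in its difference from NemX, -0.151 in that from WMJJ and -0.134 in NemX_ctl over WMJJ_ctl. The labels give replicate numbers but no shared batch or day, and all 3 same-numbered libraries deviated together with r above 0.1 in only 1 of 15 pairs of groups, SJ2_ctl with NemX_ctl (r of 0.155, 0.109 and 0.265), which both enter the SJ2 response minus the NemX response. The numbers were therefore not taken as a pairing. In pairs without NemX_rkn, replicate 3, the deepest library of those groups, had r between 0.218 and 0.442. Replicates 1 and 2 had r between -0.0149 and 0.243 in these pairs. In pairs with NemX_rkn, whose deepest library is replicate 1, r of replicates 1 and 3 was negative. With the replicate block, 3 members were called in the WMJJ response minus the NemX response in place of 1 and 5 in the SJ2 response minus the WMJJ response in place of 4, while the other 8 counts, that of the SJ2 response minus the NemX response included, did not move. Not every library correlated best with its own number. In limits of depth, A08G036500 is the weakest case, since a listed 0 cannot be set against a number of reads.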
